A study of Mus musculus with 28 samples.

Results

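The p53 target genes Cdkn1a, Mdm2, Ccng1, Bax, Bbc3, Phlda3, Eda2r, Trp53inp1, Sesn2 and Zmat3 were followed in bulk RNAseq of mouse mesothelioma tumors treated with chemotherapy, immune checkpoint blockade (ICB) or both. These 10 genes were taken by name from the 55341 gene names of the deposited count matrices. All 10 were found in both matrices and passed the filter on low counts, with between 161 and 23889 counts per tumor.

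p53 is a transcription factor that accumulates when DNA is damaged, and it switches on genes that stop the cell cycle, repair DNA or start apoptosis. Some of its targets act back on p53, above all Mdm2, the ubiquitin ligase that marks p53 for degradation. Cisplatin cross-links DNA, whereas 5-fluorouracil (5-FU), a pyrimidine analogue, blocks thymidylate synthesis and is built into RNA and DNA, and both drugs are known to activate p53 in cultured cells.

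The tumors were grown from AB1-HA, a single mouse mesothelioma line that expresses influenza hemagglutinin, under the skin of the flank of female BALB/c.AusBP mice aged 8 to 10 weeks. Treatment began when tumors measured 20 to 25 mm2, and the tumors were collected 7 days later. There were 4 tumors from mice given PBS, 5 from mice given ICB, 5 given 5-FU, 5 given 5-FU+ICB, 4 given cisplatin and 5 given cisplatin+ICB, 28 in all. ICB was 1 dose of anti-CTLA-4 and 3 doses of anti-PD-L1 (100 µg each), 5-FU was given once into the tail vein at 75 mg/kg, and cisplatin once into the peritoneum at 6 mg/kg. Groups were compared to ask how each drug, with and without ICB, left the p53 targets of the tumor a week after dosing.

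The promoters of 4 members are shown because these genes were called between the drugs over all tumors, as described below, and because a pair of matches to the p53 half-site consensus lay in them. The windows are the 250 bases before the RefSeq start of transcription (GRCm38.p6), printed 5′ to 3′ on the strand of the gene, and capitals mark a pair of 10-base half-sites separated by 0 to 13 bases.
Cdkn1a: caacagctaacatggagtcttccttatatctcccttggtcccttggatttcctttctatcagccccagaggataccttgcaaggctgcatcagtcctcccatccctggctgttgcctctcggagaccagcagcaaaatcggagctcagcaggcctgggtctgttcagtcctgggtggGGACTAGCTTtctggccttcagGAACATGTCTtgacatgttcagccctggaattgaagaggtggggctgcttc
Ccng1: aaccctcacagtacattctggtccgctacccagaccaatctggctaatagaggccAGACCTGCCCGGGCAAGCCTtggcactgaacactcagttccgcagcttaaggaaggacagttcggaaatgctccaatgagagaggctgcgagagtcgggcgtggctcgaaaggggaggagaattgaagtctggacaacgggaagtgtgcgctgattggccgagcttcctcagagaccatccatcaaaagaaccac
Bax: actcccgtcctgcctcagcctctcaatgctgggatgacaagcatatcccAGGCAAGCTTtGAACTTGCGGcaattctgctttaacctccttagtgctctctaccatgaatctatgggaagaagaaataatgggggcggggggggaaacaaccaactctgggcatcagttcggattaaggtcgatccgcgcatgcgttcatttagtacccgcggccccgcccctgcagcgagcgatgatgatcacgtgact
Bbc3: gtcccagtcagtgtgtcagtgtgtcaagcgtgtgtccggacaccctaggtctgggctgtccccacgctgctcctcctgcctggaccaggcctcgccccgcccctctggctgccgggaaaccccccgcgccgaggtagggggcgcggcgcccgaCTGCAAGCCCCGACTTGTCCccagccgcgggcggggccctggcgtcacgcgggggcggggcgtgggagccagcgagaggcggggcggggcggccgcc

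These windows lie at chr17:29090729-29090978 on the plus strand (Cdkn1a), chr11:40755287-40755536 on the minus strand (Ccng1), chr7:45466899-45467148 on the minus strand (Bax) and chr7:16309333-16309582 on the plus strand (Bbc3). In each window the pair with the fewest mismatches was marked. The Cdkn1a pair had 0 mismatches to the consensus, a spacer of 12 bases and its first base at -73 from the start. Among all 32851 windows of this length, 0.0639% held a pair with 0 mismatches. Its second half-site, GAACATGTCT, is followed directly by tgacatgttc, which has 1 mismatch. An unspaced pair with 1 mismatch thus overlaps the marked Cdkn1a pair. The Ccng1 pair began at -195 with 1 mismatch, the Bax pair at -201 with 2 and the Bbc3 pair at -97 with 3. Pairs with at most 1, 2 or 3 mismatches were held by 0.505%, 3.34% and 13% of all windows, so the Bbc3 match is of a kind that many promoters hold. The Mdm2 window held 1 exact half-site, GAACTTGCCT, at -186, as did 7.13% of all windows, with no second half-site within reach. The windows of Phlda3, Eda2r and Sesn2 held no match. Cdkn1a and Bbc3 had more than 1 window, and only the first of each is printed above. Cdkn1a window 2 (chr17:29093519-29093768) and Bbc3 window 3 held no match either, and Bbc3 window 2 held another pair with 3 mismatches. The shares of all windows are per window and not per gene. In all, 8 members with 11 windows were found in the table, without Trp53inp1 and Zmat3. The consensus reads the same on both strands. A match describes the letters of the window and is not a measured binding site.

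Total counts were 23541733 to 33950805 per tumor. Msln, which encodes mesothelin, a marker of mesothelial cells, was at 212 to 358 CPM in the PBS and cisplatin tumors, but Upk3b, Krt18 and Krt19 were at or near 0 in most tumors. Others of the 8 mesothelial markers were expressed apart from Msln. In 5-FU+ICB replicate 5 the 8 markers summed to 182 CPM, with Msln at 0.5001 CPM. The mean log2 CPM of all 8 mesothelial markers did not follow Msln in every group, at 0.224 ± 0.248 (SD, n = 4) in PBS tumors, 0.436 ± 0.433 (SD, n = 4) in cisplatin tumors, 0.629 ± 0.383 (SD, n = 5) in cisplatin+ICB tumors, 0.188 ± 0.193 (SD, n = 5) in 5-FU tumors, 0.295 ± 0.189 (SD, n = 5) in ICB tumors and 0.805 ± 0.681 (SD, n = 5) in 5-FU+ICB tumors. CPM are counts scaled by the library size of each tumor after TMM normalization. The tumors also held other cells, and for these bulk samples fewer cells of a type and less RNA per cell cannot be told apart. Ptprc (CD45) was at 75.0 to 155 CPM in the PBS and cisplatin tumors and at 245 to 443 CPM in the ICB tumors. A pair of tumors stood apart from their groups. In cisplatin+ICB replicate 1, Msln was at 654.5 CPM, against 130.5 to 265.5 in the others of its group, and the summed fibroblast markers were lowest of all 28 tumors at 1909 CPM. In 5-FU+ICB replicate 5, Msln was at 0.5001 CPM and Ptprc at 722.5 CPM. Mitochondrial genes took 16.1% of the counts of that tumor, against 2.33% to 4.94% in the others of its group, and 1.03% in cisplatin+ICB replicate 1, the lowest share of all. Where this pair of tumors changed a member's call or moved a called value by more than 1.5 times, the value without it is also given.

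Most of the 10 p53 targets followed stood higher in cisplatin-treated than in 5-FU-treated tumors. Averaged over the tumors with and without ICB, 7 of the 10 members were called higher with cisplatin and 0 lower, where called means a Benjamini-Hochberg adjusted p under 0.05 over all genes in edgeR's quasi-likelihood test and an absolute log2 fold change over 0.5. Of all 18521 genes tested, 17.0% were called and 7.65% were called higher. The members called were Cdkn1a, Mdm2, Ccng1, Bax, Bbc3, Phlda3 and Eda2r, by 1.52-fold (Mdm2) to 1.90-fold (Bbc3), and DESeq2 also called 7 higher (8.09% of genes). The median log2 fold change was 0.645 over the members and 0.012 over all genes.

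**Figure D1:**
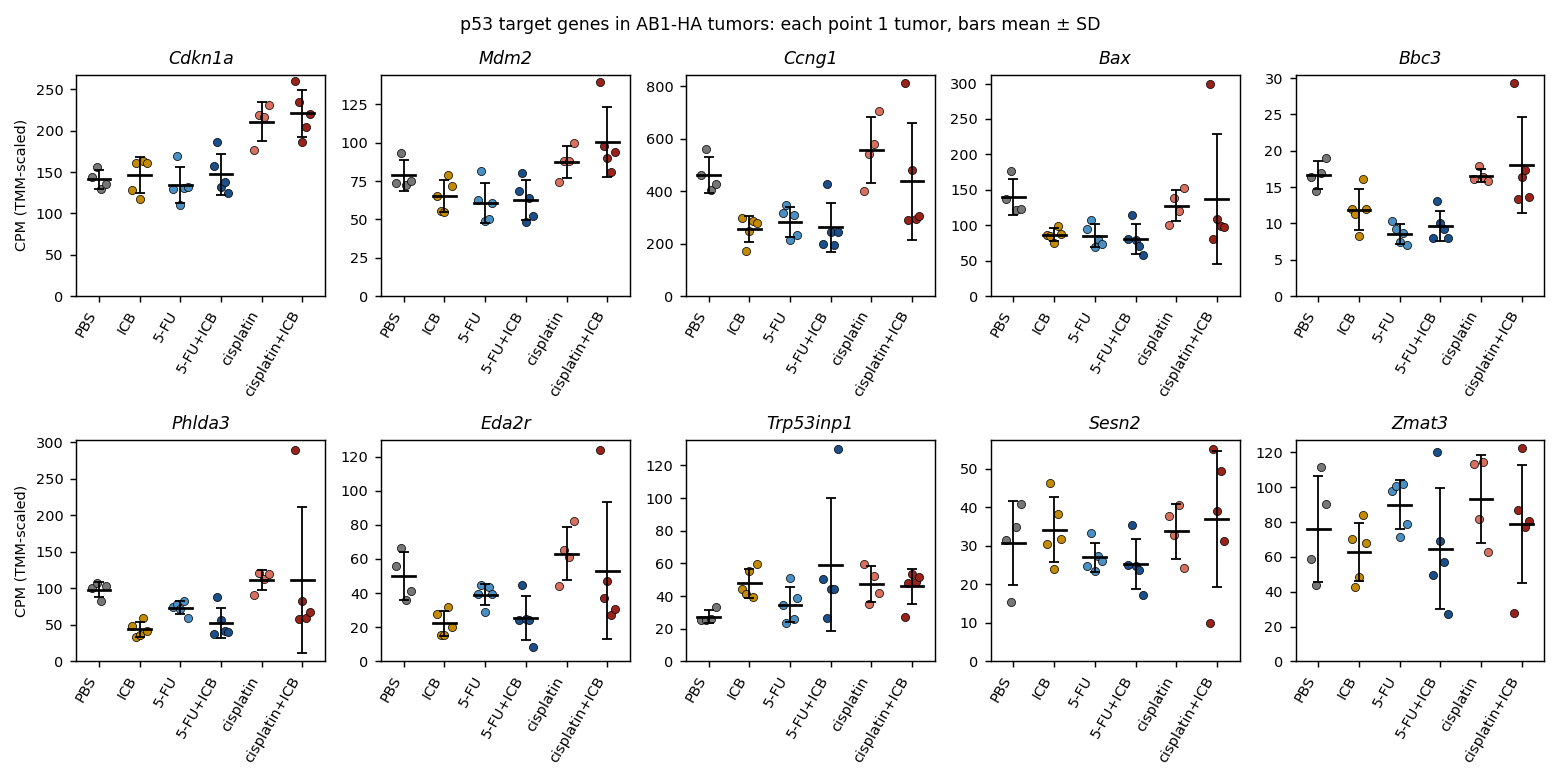
Level of each member in every tumor, in TMM-scaled CPM on a linear axis from 0, by treatment group. Each point is 1 tumor and the bars are the mean ± SD of 4 or 5 tumors. For Cdkn1a both cisplatin groups, at 177 to 260.5 CPM, stand above the PBS tumors, at 129 to 156 CPM. For Bax, Phlda3 and Eda2r 1 cisplatin+ICB tumor lies far above the rest.

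Cdkn1a encodes p21, the inhibitor of cyclin-dependent kinases through which p53 halts the cell cycle. It was at 177, 219, 216 and 231 CPM in the cisplatin tumors and at 260.5, 235, 186, 205 and 219.8 CPM in the cisplatin+ICB tumors. With 5-FU it was at 129, 170.0, 109.8, 131 and 132 CPM, and with 5-FU+ICB at 157, 186.5, 132, 138 and 124 CPM. The remaining groups were close to the 5-FU groups, with 144, 156, 129 and 135.5 CPM in PBS tumors and 129, 161.5, 118, 163 and 161.5 CPM in ICB tumors. Thus 7 of the 9 cisplatin-treated tumors stood above the highest of the 10 5-FU-treated tumors, and only cisplatin replicate 1 and cisplatin+ICB replicate 3 fell within their range. The log2 fold change was 0.62 ± 0.105 (edgeR adjusted p = 0.00144), where ± gives the standard error after a log2 fold change throughout. In rising order of group means, 5-FU, PBS, ICB and 5-FU+ICB tumors (134.5 to 147.5 CPM) did not differ beyond their SDs of 11.6 to 24.9 CPM, and neither did both cisplatin groups from each other.

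Mdm2 and Ccng1, which encodes cyclin G1, act in the feedback on p53. Mdm2 was at 74.5, 87.8, 88.3 and 99.6 CPM with cisplatin and at 139.8, 97.6, 90.3, 81.1 and 94.2 CPM with cisplatin+ICB. It was at 62.8, 81.7, 48.8, 50.3 and 60.5 CPM with 5-FU and at 68.3, 80.2, 48.3, 63.7 and 51.9 CPM with 5-FU+ICB. Both sets with ICB were fully separated, whereas 5-FU replicate 2 lay within the range of the cisplatin tumors. The log2 fold change between the drugs was 0.61 ± 0.125 (edgeR adjusted p = 0.00575).

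Ccng1 was at 401, 543, 579 and 707.5 CPM with cisplatin and at 813, 292, 481, 295.5 and 306 CPM with cisplatin+ICB. With 5-FU its values were 316, 348, 214, 310.1 and 234 CPM, and with 5-FU+ICB they were 199, 426, 246, 197 and 245 CPM. All 4 cisplatin tumors exceeded all 5-FU tumors, while 3 of the cisplatin+ICB tumors were near 300 CPM and overlapped the 5-FU+ICB tumors. The log2 fold change was 0.85 ± 0.19 (edgeR adjusted p = 0.0087).

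Bbc3 and Bax belong to cell death, and Bbc3 separated the drugs without overlap. Bbc3 encodes Puma, a BH3-only protein that releases Bax and its relatives from inhibition. It was at 16.1, 17.9, 16.4 and 15.9 CPM with cisplatin and at 29.4, 13.4, 16.4, 17.4 and 13.7 CPM with cisplatin+ICB. In 5-FU tumors it was at 10.3, 9.275, 7.48, 8.65 and 7.03 CPM and in 5-FU+ICB tumors at 7.93, 13.05, 10.1, 9.22 and 8.05 CPM. The lowest cisplatin-treated tumor, at 13.4 CPM, lay just above the highest 5-FU-treated tumor, at 13.05 CPM, and of all genes tested 0.216% were likewise higher in every cisplatin-treated tumor. The log2 fold change was 0.93 ± 0.15 (edgeR adjusted p = 0.00109). In PBS tumors Bbc3 was at 14.4 to 19.04 CPM, a range that held all tumors given cisplatin alone.

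Bax, which encodes the protein that opens the outer mitochondrial membrane, was at 101, 138, 120.4 and 152 CPM with cisplatin and 300.0, 80.9, 109, 98.8 and 97.95 CPM with cisplatin+ICB. It was at 94.5, 108, 68.6, 80.7 and 74.2 CPM with 5-FU and 80.6, 115, 79.8, 70.9 and 58.6 CPM with 5-FU+ICB. The value of cisplatin+ICB replicate 1, the tumor that stood apart, was the highest of all 28 tumors, and the rest of that group overlapped the 5-FU groups. The log2 fold change of 0.67 ± 0.19 (edgeR adjusted p = 0.0202) became 0.39 ± 0.117 (edgeR adjusted p = 0.0363) without both tumors that stood apart, below the fold change threshold. In PBS tumors Bax was at 122 to 177 CPM, which overlapped the tumors given cisplatin alone.

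Eda2r, a receptor for ectodysplasin A2 in the tumor necrosis factor receptor family, was at 43.9, 65.2, 61.1 and 82.04 CPM with cisplatin and 124, 37.3, 46.9, 26.9 and 30.9 CPM with cisplatin+ICB. It was at 39.3, 44.5, 28.9, 43.6 and 39.3 CPM with 5-FU and 24.2, 44.8, 24.8, 24.1 and 8.55 CPM with 5-FU+ICB. Here both tumors that stood apart were the extremes, with the highest value in cisplatin+ICB replicate 1 and the lowest in 5-FU+ICB replicate 5. Its log2 fold change was 0.88 ± 0.27 (edgeR adjusted p = 0.0266) with them and 0.50 ± 0.181 (edgeR adjusted p = 0.075) without.

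Phlda3 encodes a pleckstrin homology protein that restrains Akt. It was at 91.02, 121.5, 113 and 119.9 CPM with cisplatin and 289, 58.3, 82.5, 60.01 and 67.5 CPM with cisplatin+ICB. With 5-FU it was at 73.9, 78.2, 71.5, 82.85 and 59.7 CPM and with 5-FU+ICB at 36.9, 87.6, 56.9, 41.4 and 40.55 CPM. Without ICB all cisplatin tumors lay above all 5-FU tumors, and with ICB the groups overlapped apart from cisplatin+ICB replicate 1. The log2 fold change of 0.84 ± 0.24 (edgeR adjusted p = 0.0207) was 0.46 ± 0.138 (edgeR adjusted p = 0.038) without both tumors.

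The other 3 members, which respond to several kinds of stress, did not pass the test. Trp53inp1, a nuclear protein that promotes p53 activity and autophagy, had a log2 fold change of 0.038 ± 0.22 (adjusted p = 0.907). Sesn2, a sestrin that holds back mTORC1, had 0.44 ± 0.22 (adjusted p = 0.154), and Zmat3, an RNA-binding zinc finger protein, had 0.17 ± 0.25 (adjusted p = 0.638), all from edgeR. Sesn2 was lowest of all tumors in cisplatin+ICB replicate 1, at 9.97 CPM, against 31.2 to 55.3 CPM in the others of its group. It was at 37.7, 32.7, 40.55 and 24.3 CPM with cisplatin, at 24.7, 33.4, 23.5, 27.3 and 26.1 CPM with 5-FU and at 17.2 to 35.5 CPM with 5-FU+ICB. Without both tumors that stood apart Sesn2 was called higher with cisplatin (log2 fold change 0.52 ± 0.159, edgeR adjusted p = 0.0408), and Trp53inp1 was at 0.37 ± 0.155 (edgeR adjusted p = 0.123).

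Leaving out that pair of tumors left 5 members called, namely Cdkn1a, Mdm2, Ccng1, Bbc3 and Sesn2, beside 7.54% of all genes. Cdkn1a was then at a log2 fold change of 0.57 (edgeR adjusted p = 0.00194) and Bbc3 at 0.79 (edgeR adjusted p = 0.000325). The members that kept their call in both analyses were thus Cdkn1a, Mdm2, Ccng1 and Bbc3.

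Other features of the tumors moved with this difference. Msln was at 212 to 307.5 CPM with cisplatin and 130.5 to 654.5 CPM with cisplatin+ICB, but at 45.03 to 177 CPM with 5-FU and 0.5001 to 167 CPM with 5-FU+ICB. The 9 leukocyte markers summed to 369 to 636 CPM with cisplatin, 427 to 1561 CPM with cisplatin+ICB, 490 to 1580 CPM with 5-FU and 486 to 2165 CPM with 5-FU+ICB. The 4 fibroblast markers summed to 5388 to 9778 CPM with cisplatin and 10270 to 15840 CPM with 5-FU, but overlapped with ICB, at 1909 to 7361 CPM with cisplatin+ICB and 3597 to 13050 CPM with 5-FU+ICB. The 4 endothelial markers summed to 69.6 to 99.3 CPM with cisplatin and 128 to 294 CPM with 5-FU, and to 26.1 to 157.5 CPM with cisplatin+ICB and 150.4 to 616 CPM with 5-FU+ICB. The 5 skeletal muscle markers ranged most, from 6.14 to 1228 CPM within the 5-FU tumors alone. Mitochondrial genes took 1.72% to 2.76% of the counts with cisplatin and 2.72% to 6.80% with 5-FU, and 1.03% to 3.99% and 2.33% to 16.1% in the combinations. With the mean log2 CPM of the leukocyte markers as a covariate, chosen after seeing the data, 2 members were called between the drugs, beside 1.14% of all genes. They were Bbc3, with a log2 fold change of 0.68 ± 0.11 (edgeR adjusted p = 0.00252), and Cdkn1a, with 0.53 ± 0.10 (adjusted p = 0.00906). With the log2 CPM of Msln as a covariate, also chosen after seeing the data, 2 members were called, beside 0.567% of all genes. They were Trp53inp1, with 0.76 ± 0.14 (edgeR adjusted p = 0.0155), and Bbc3, with 0.67 ± 0.15 (adjusted p = 0.0377), and Cdkn1a was at 0.47 ± 0.11 (adjusted p = 0.0559). In either fit 9 of the 10 members had a positive difference, the exception being Zmat3. The part of the fibroblast, endothelial and muscle markers and of the mitochondrial share in the result was not tested.

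**Figure D2:**
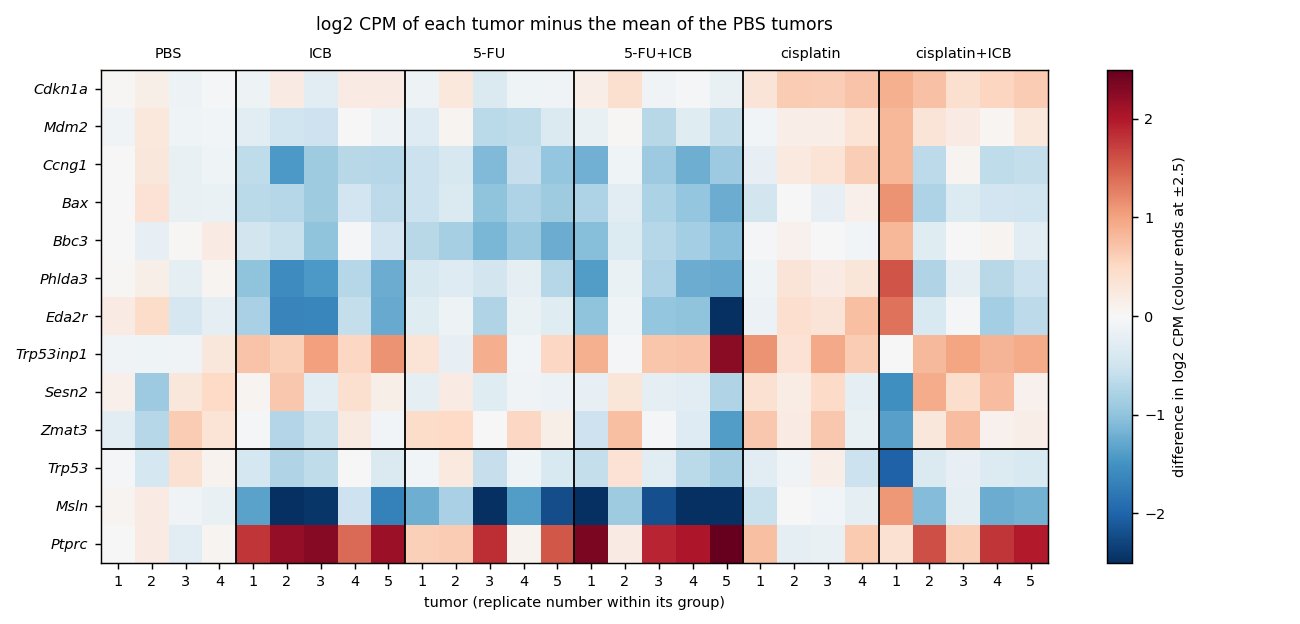
Difference in log2 CPM between each tumor (columns, numbered by replicate within its group) and the mean of the PBS tumors, for the members and, under the line, Trp53, Msln and Ptprc. Red is higher and blue lower, with colours ending at ±2.5. The row of Cdkn1a is red in both cisplatin groups, and cisplatin+ICB replicate 1 stands out in the rows from Ccng1 to Eda2r.

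Each drug was also set against its own control. Relative to PBS, cisplatin gave 0 called members, as it gave 0 called genes of 17819 (0%), and relative to ICB, cisplatin+ICB likewise gave 0 of 10 (0% of all genes). At an unadjusted edgeR p under 0.05, 2 and 7 members were higher in these comparisons (1.30% and 8.74% of genes) and 0 lower, and DESeq2 called 0 and 2 (0.0114% and 0.260% of genes). Cdkn1a did not overlap in either comparison, with a log2 fold change of 0.58 ± 0.16 against PBS and 0.60 ± 0.14 against ICB. Averaged over both, all 10 members had a positive log2 fold change, as 54.8% of all genes did, with a median of 0.381 against 0.029 over all genes. By edgeR 0 of these passed after adjustment (0% of all genes), 6 were higher at an unadjusted p under 0.05 (2.39% of all genes were), and DESeq2 called 1, Cdkn1a, among 0.0416% of genes called. For Cdkn1a the averaged log2 fold change was 0.59 ± 0.11, with an adjusted p of 0.162 from edgeR and 9.04e-06 from DESeq2.

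Trp53inp1 was the other member that cisplatin alone separated from PBS. It was at 59.5, 34.9, 52.6 and 42.03 CPM with cisplatin and 25.5, 25.2, 25.8 and 33.2 CPM with PBS, a log2 fold change of 0.79 ± 0.22 (edgeR adjusted p = 1). Non-overlap with higher values, as in these members, was seen in 1.53% of genes for cisplatin against PBS. In the tumors given ICB it was at 27.4, 47.8, 53.75, 48.9 and 51.5 CPM with cisplatin and 44.4, 41.2, 55.1, 39.2 and 59.4 CPM without, ranges that overlapped. Mdm2 was separated in the ICB pair, at a log2 fold change of 0.63 ± 0.16 (edgeR adjusted p = 0.291), where 0.202% of genes did not overlap in that direction. Its lowest cisplatin+ICB tumor, at 81.1 CPM, lay just above the highest ICB tumor, at 78.7 CPM.

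5-FU alone lowered 3 members relative to PBS and raised 0, where 23% of all genes were called and 13% were called lower. They were Bbc3 (-0.95 ± 0.18, adjusted p = 0.00421 by edgeR, as a log2 fold change), Bax (-0.72 ± 0.18, adjusted p = 0.0112) and Ccng1 (-0.71 ± 0.22, adjusted p = 0.0264). Bbc3 was at 16.4, 14.4, 16.9 and 19.04 CPM with PBS, so that every PBS tumor stood above every 5-FU tumor. Bax, at 136.5, 177, 122 and 123 CPM, and Ccng1, at 461, 559.9, 406 and 427 CPM with PBS, were separated from 5-FU as well, and so was Phlda3 (99.7, 108, 83.1 and 102.5 CPM with PBS), which did not pass the test (-0.42 ± 0.22, adjusted p = 0.148). These 4 compare with 17.8% of genes that were lower without overlap. Cdkn1a was at a log2 fold change of -0.068 ± 0.15 (adjusted p = 0.754) by edgeR. Without PBS replicate 2 only 1 member, Bbc3, was called. Over the 19 fits that left out 1 tumor, the Ccng1 call was lost in 4 (edgeR adjusted p up to 0.109) and the Bax call in 1. The leukocyte markers summed to 427 to 483 CPM with PBS and 490.0 to 1580 CPM with 5-FU, the fibroblast markers to 3756 to 9112 CPM and 10270 to 15840 CPM, and Msln was at 271.5 to 358 CPM with PBS and 45.03 to 177 CPM with 5-FU. With the leukocyte covariate Bax (-0.45 ± 0.17, edgeR adjusted p = 0.0643) and Ccng1 (-0.365 ± 0.20, edgeR adjusted p = 0.175) were no longer called, Bbc3 was (-0.63 ± 0.16, edgeR adjusted p = 0.011), and Zmat3 was called higher (0.90 ± 0.25, edgeR adjusted p = 0.0195), beside 22.5% of all genes called. With the Msln covariate all 3 kept their call and Zmat3 was called higher too (0.64 ± 0.215, edgeR adjusted p = 0.0364), beside 23.6% of genes. Without a covariate Zmat3 was at 0.27 ± 0.31 (adjusted p = 0.532).

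In the presence of ICB no effect of 5-FU on the members was detected. Relative to ICB, 0 of 10 members were called in 5-FU+ICB tumors by edgeR or DESeq2 (0.229% and 1.68% of all genes), and 0 had an unadjusted edgeR p under 0.05 (10.9% of genes). Bbc3 was at 11.99, 11.3, 8.21, 16.1 and 11.9 CPM with ICB alone and had a log2 fold change of -0.31 ± 0.17 (adjusted p = 0.552). The averaged 5-FU effect was called for 1 member, Bbc3 (-0.63 ± 0.13, adjusted p = 0.00543), against 10.7% of genes called and 3.75% called lower. With the Msln covariate Bbc3 was below the fold change threshold (-0.49 ± 0.125, edgeR adjusted p = 0.0188) and Zmat3 was called higher (0.50 ± 0.16, edgeR adjusted p = 0.0434). With the leukocyte covariate 0 members were called, as Bbc3 was again below that threshold (-0.47 ± 0.10, edgeR adjusted p = 0.00568). The difference between the effect with and without ICB was itself tested. It was called for 0 of 10 members with 5-FU (0.0893% of genes), where 4 had an unadjusted p under 0.05 (23.9% of genes) and DESeq2 called 0 (9.57% of genes). With cisplatin it was called for 0 of 10 (0% of genes), where 2 had such a p (7.14% of genes), or 1 without both tumors that stood apart (5.24% of genes), and DESeq2 called 0 (0.00285% of genes). Its largest values were 0.74 ± 0.30 (edgeR adjusted p = 0.146) for Ccng1 with 5-FU and 1.165 ± 0.55 (edgeR adjusted p = 0.564) for Phlda3 with cisplatin. The Phlda3 value was 0.45 ± 0.24 without both tumors that stood apart and without cisplatin+ICB replicate 1 alone, and -0.13 ± 0.29 with the Msln covariate. The comparisons with PBS and with ICB share their control tumors between the drugs.

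**Figure D3:**
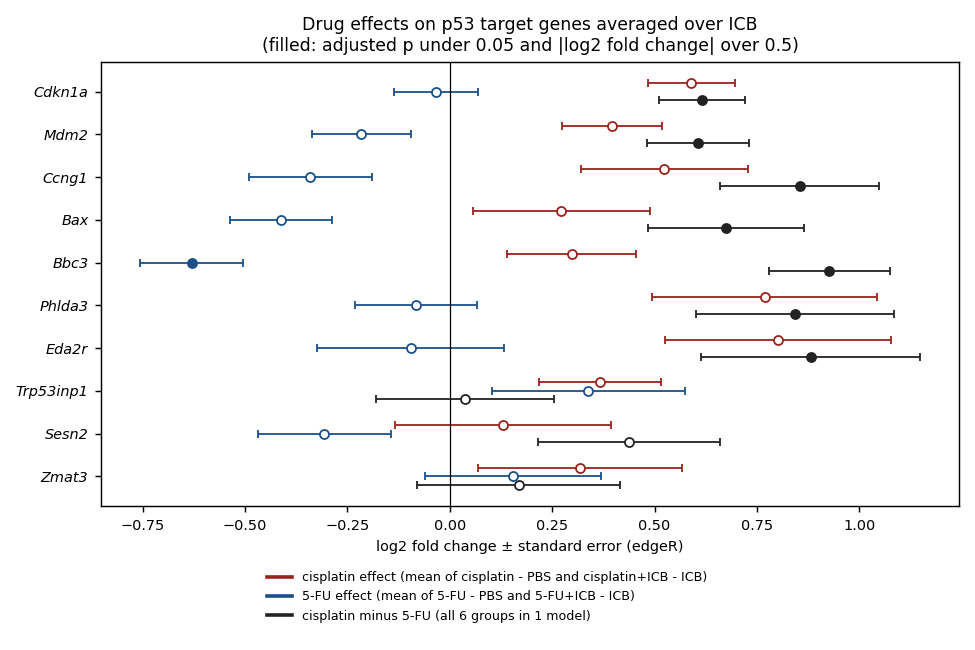
Log2 fold change ± standard error from edgeR for each member, for the cisplatin effect, the 5-FU effect and their difference, all averaged over tumors with and without ICB. Filled points were called. All cisplatin effects lie right of 0 without being called, and 7 of the differences are filled.

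The drugs were compared within each ICB setting too. Without ICB, 1 member was called lower with 5-FU than with cisplatin, Bbc3 (-0.96 ± 0.21, adjusted p = 0.0455), with 0.362% of genes called by edgeR and 0.270% called lower. This call was lost in 18 of 28 fits that left out 1 tumor (edgeR adjusted p up to 0.194), with the leukocyte covariate (edgeR adjusted p = 0.0621) and with the Msln covariate (edgeR adjusted p = 0.0587), where Trp53inp1 was called lower with 5-FU instead (-0.87 ± 0.18, edgeR adjusted p = 0.0355). DESeq2 called 3 lower (0.974% of genes), and 5 were lower at an unadjusted edgeR p under 0.05 (6.62% of genes). Cdkn1a, Ccng1, Bbc3 and Phlda3 did not overlap, as 7.25% of genes lower with 5-FU. Both tumors that stood apart were from the combinations and thus in neither group of this comparison, though in its model, and without them 6 members were called, beside 8.12% of all genes. They were Bbc3 (-0.95 ± 0.15, edgeR adjusted p = 0.00151), Ccng1 (-0.97 ± 0.22, edgeR adjusted p = 0.0131) and Cdkn1a (-0.64 ± 0.14, edgeR adjusted p = 0.01). The others were Bax (-0.58 ± 0.16, edgeR adjusted p = 0.0287), Mdm2 (-0.52 ± 0.16, edgeR adjusted p = 0.042) and Phlda3 (-0.60 ± 0.19, edgeR adjusted p = 0.0483). With ICB, 0 members were called by edgeR (0.297% of genes were called), 7 were lower at an unadjusted p under 0.05 (13.5% of genes), and DESeq2 called 7 (8.32% of genes). Without both tumors that stood apart, 4 were lower at an unadjusted p (5.1% of genes), namely Bbc3, Cdkn1a, Mdm2 and Sesn2. In that fit Bbc3 had -0.64 ± 0.16 (edgeR adjusted p = 0.243) and Mdm2 -0.52 ± 0.17 (edgeR adjusted p = 0.411). Over all tumors Bbc3 had -0.90 ± 0.20 (edgeR adjusted p = 0.0511) and Mdm2 -0.69 ± 0.17 (edgeR adjusted p = 0.0631), and these 2 did not overlap (0.907% of genes did not, lower with 5-FU+ICB). Leaving out 5-FU+ICB replicate 2 alone took the count from 0 to 7. In that tumor the leukocyte markers summed to 486 CPM, against 1478 to 2165 CPM in the others of its group, and Msln was at 167 CPM, against 67.8 CPM or less.

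ICB alone changed a large share of all genes, and the members' share was close to it. Relative to PBS 4 of 10 members were called lower, Ccng1 (-0.845 ± 0.22, adjusted p = 0.00597), Bax (-0.68 ± 0.18, adjusted p = 0.00681), Phlda3 (-1.15 ± 0.22, adjusted p = 0.000975) and Eda2r (-1.17 ± 0.33, adjusted p = 0.0101), where 37.8% of genes were called and 18.8% called lower. They also did not overlap, as 21.6% of genes lower with ICB. Phlda3 was at 48.8, 32.96, 36.1, 59.6 and 41.2 CPM with ICB, Eda2r at 27.5, 15.4, 15.6, 32.1 and 20.4 CPM with ICB and 56.1, 66.5, 36.1 and 41.2 CPM with PBS. The lowest PBS tumors were above the highest ICB tumors for both genes. Bax was at 86.1, 84.55, 74.5, 99.3 and 88.1 CPM and Ccng1 at 297, 171, 248, 285 and 279 CPM with ICB. Trp53inp1 differed the other way, with higher values in every ICB tumor than in any PBS tumor (15.8% of genes), at 0.83 ± 0.35 (adjusted p = 0.0633) by edgeR, a difference that was not called in this fit. It was called in the matrix of the cisplatin groups (0.82 ± 0.21, adjusted p = 0.0109), by DESeq2, and without 5-FU+ICB replicate 5 (0.83 ± 0.23, edgeR adjusted p = 0.00773) or 5-FU+ICB replicate 2 (edgeR adjusted p = 0.0334), and it was -0.39 with the leukocyte covariate (edgeR adjusted p = 0.37). Fitted on the cisplatin matrix, Bax was not called (-0.68 ± 0.30, edgeR adjusted p = 0.1), while Ccng1, Phlda3 and Eda2r were called lower and Trp53inp1 higher, beside 26.2% of genes called. Cdkn1a had 0.073 ± 0.15 (adjusted p = 0.709). With ICB the leukocyte markers summed to 1095 to 2469 CPM, against 427 to 483 CPM with PBS, and Msln was at 52.0 to 216.5 CPM, against 271.5 to 358 CPM. With the leukocyte level as a covariate, chosen after seeing the data, 0 members were called, beside 10.6% of all genes. With the Msln covariate, chosen likewise, 4 members were called, beside 33.8% of all genes.

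Adding ICB to a chemotherapy gave 0 called members for 5-FU+ICB against 5-FU (0.0112% of genes) and 0 for cisplatin+ICB against cisplatin (0% of genes) by edgeR, and 0 in each by DESeq2 (2.97% and 4.20% of genes). At an unadjusted p under 0.05 there were 2 in the first (16.6% of genes), Trp53inp1 higher (0.79 ± 0.32, adjusted p = 0.24) and Phlda3 lower (-0.47 ± 0.21, adjusted p = 0.268), and 0 in the second (14.2% of genes). Without both tumors that stood apart the first count was 0 (9.14% of genes) and the second 3 (35% of genes). The Trp53inp1 value rested on 5-FU+ICB replicate 5, at 130.1 CPM against 26.5 to 50.6 CPM in its group, and was 0.265 without that tumor (edgeR adjusted p = 0.775). Without cisplatin+ICB replicate 1, 1 member was called lower with cisplatin+ICB than with cisplatin, Phlda3 (-0.68 ± 0.18, edgeR adjusted p = 0.0242), and without both tumors that stood apart 11.9% of all genes were called there. Ccng1 was then at -0.65 ± 0.215 (edgeR adjusted p = 0.0551) and Eda2r at -0.78 ± 0.28 (edgeR adjusted p = 0.0673).

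Of the 13 genes for p53 and its regulators, 1 was called between the drugs, lower with cisplatin, where 17% of all genes were called. Trp53 itself was at 145, 163, 195 and 120.5 CPM with cisplatin and 167, 208, 117, 161 and 135 CPM with 5-FU, which overlapped throughout, with a log2 fold change of -0.115 ± 0.20 (adjusted p = 0.687) averaged over ICB. Mdm4, the partner of Mdm2 in holding p53 back, had 0.20 ± 0.22 (adjusted p = 0.519). Both were low in cisplatin+ICB replicate 1, Trp53 at 42.8 CPM and Mdm4 at 18.6 CPM, and without both tumors that stood apart Trp53 was at -0.04 ± 0.13 (adjusted p = 0.868) and Mdm4 at 0.31 ± 0.175 (adjusted p = 0.246). Cdkn2a, the source of p16 and of the Mdm2 inhibitor p19Arf, was the one called (-1.68 ± 0.52, adjusted p = 0.0285). It was at 0 to 0.207 CPM with cisplatin and 0.108 to 0.846 CPM with 5-FU, and at 0.118 to 0.805 CPM with cisplatin+ICB and 0.217 to 3.80 CPM with 5-FU+ICB, so the drugs overlapped in either setting. The highest value was that of 5-FU+ICB replicate 5, and the call was lost in 5 of 28 fits that left out 1 tumor (adjusted p up to 0.0836) and without both tumors that stood apart (-1.30 ± 0.52, adjusted p = 0.101).

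The cell cycle and repair targets of p53 outside the 10 members showed 6 of 14 genes called between the drugs, 5 higher and 1 lower with cisplatin, beside 7.65% and 9.31% of all genes. Trp53cor1, the long noncoding RNA known as lincRNA-p21, lies beside Cdkn1a on chromosome 17 (29057430 to 29079179, GRCm38). It was at 1.38, 1.13, 1.56 and 1.37 CPM with cisplatin, 1.75, 1.55, 1.45, 1.35 and 1.19 CPM with cisplatin+ICB, 0.536, 0.144, 0.3735, 0.257 and 0.309 CPM with 5-FU and 0.463, 0.386, 0.374, 0.628 and 0.0620 CPM with 5-FU+ICB, levels near 1 CPM that separated the drugs fully (1.995 ± 0.28, adjusted p = 0.000413). Rps27l had 1.23 ± 0.38 (adjusted p = 0.0283), a gene with near-identical relatives between which reads can be split, and it rested on cisplatin+ICB replicate 1 (935.5 CPM, against 70.2 to 86.9 CPM in the others of its group), since without both tumors that stood apart it had 0.41 (edgeR adjusted p = 0.124). Ddb2, the damage sensor of nucleotide excision repair, had 1.20 ± 0.31 (adjusted p = 0.0144), or 0.789 without cisplatin+ICB replicate 1, where it was still called. The gene lower with cisplatin was Btg2 (-1.18 ± 0.33, adjusted p = 0.0195), an antiproliferative factor named here after its value was seen.

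Among 13 death and metabolism targets 2 were called higher and 2 lower with cisplatin, against the same shares of all genes. Gdf15, a secreted stress cytokine, was at 1.59, 2.36, 1.98 and 1.84 CPM with cisplatin and 0.438, 1.08, 0.6235, 0.367 and 0.789 CPM with 5-FU, without overlap (1.85 ± 0.31, adjusted p = 0.00125). Ddit4, an inhibitor of mTORC1 that hypoxia also induces, had 1.15 ± 0.26 (adjusted p = 0.00924), and Dram1, a lysosomal protein of autophagy, had -1.13 ± 0.27 (adjusted p = 0.0112). None of the 12 proliferation genes that p21 lowers was called between the drugs by edgeR, with 2 higher at an unadjusted p under 0.05 (18.8% of all genes) and 1 called higher by DESeq2 (8.09% of all genes), and their median log2 fold change was 0.357. Against PBS, 5 of these 12 were called lower with 5-FU, led by Cdk1 (-1.05 ± 0.30, adjusted p = 0.0195), Ccnb2 (-0.96 ± 0.25, adjusted p = 0.0136) and Ccnb1 (-0.86 ± 0.28, adjusted p = 0.0312), beside 13% of all genes, and 9 with ICB, beside 18.8%. Over 19 fits that left out 1 tumor, the 5-FU call of Ccnb1 was lost in 4 (adjusted p up to 0.126), that of Cdk1 in 2 and that of Ccnb2 in 1. With cisplatin 0 of the 12 were called against PBS, as were 0% of all genes.

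Relative to PBS, 5-FU alone lowered 5 and raised 1 of the 14 cell cycle and repair targets, with Trp53cor1 at -1.50 ± 0.48 (adjusted p = 0.0305), Gadd45a at -1.47 ± 0.25 (adjusted p = 0.00221) and Btg2 higher at 1.71 ± 0.56 (adjusted p = 0.0327). Gadd45a, a stress sensor of growth arrest, was at 22.7, 21.8, 18.6 and 21.75 CPM with PBS and 8.52, 7.62, 6.43, 7.15 and 8.45 CPM with 5-FU, so the groups did not overlap. Of the 13 death and metabolism targets 3 were lower and 3 higher, led by Gdf15 (-1.79 ± 0.50, adjusted p = 0.0176), Dram1 (1.62 ± 0.40, adjusted p = 0.0108) and Ddit4 (-1.51 ± 0.31, adjusted p = 0.00565). Of the 13 regulators 2 were called, the checkpoint kinase gene Chek2 lower (-0.82 ± 0.18, adjusted p = 0.00731) and Trp73 higher, from 0.0678 CPM or less in PBS tumors to 0.108 to 0.490 CPM. These levels are near that of 3 counts, and the Trp73 call was lost in 13 of 19 fits that left out 1 tumor (adjusted p up to 0.121). The calls of Btg2 (adjusted p up to 0.086) and Trp53cor1 (adjusted p up to 0.0892) were lost in 7 and 6 of these 19 fits. Over all genes 23% were called in this comparison.

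With ICB alone against PBS genes of the same lists were called in both directions. Of all genes 37.8% were called, 19% higher and 18.8% lower. Among the 13 regulators 4 were called higher and 2 lower, led by Trp73 (0.136 to 1.11 CPM with ICB), Cdkn2a (2.14 ± 0.73, adjusted p = 0.0259) and Chek1, another checkpoint kinase gene (-1.14 ± 0.31, adjusted p = 0.00797). Mdm4 was also called higher, at a log2 fold change of 0.754, and this call was lost in 1 of 19 fits that left out 1 tumor (adjusted p up to 0.0585). Of the 14 cell cycle and repair targets 1 was higher and 4 lower, led by Btg2 (1.46 ± 0.55, adjusted p = 0.0414), Rps27l (-1.19 ± 0.21, adjusted p = 0.000657) and Plk2 (-1.16 ± 0.26, adjusted p = 0.00272). Of the 13 death and metabolism targets 4 were higher and 3 lower, led by Dram1 (2.62 ± 0.42, adjusted p = 0.000414), Pmaip1 (2.18 ± 0.49, adjusted p = 0.00266) and the death receptor gene Fas (1.88 ± 0.38, adjusted p = 0.0015). With the leukocyte covariate Cdkn2a was at -0.387 (adjusted p = 0.688) and Btg2 at -0.74 (adjusted p = 0.249), both reversed, and Trp73, Chek1, Plk2, Pmaip1, Fas and Cdk1 were not called. Rps27l and Dram1 kept their calls. The Btg2 call was also lost in 7 and the Cdkn2a call in 3 of 19 fits that left out 1 tumor. Of the proliferation genes 9 of 12 were lower, with Cdk1 at -1.45 ± 0.30 (adjusted p = 0.00175). Adjusted p-values in this and the preceding paragraphs are from edgeR.

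**Figure D4:**
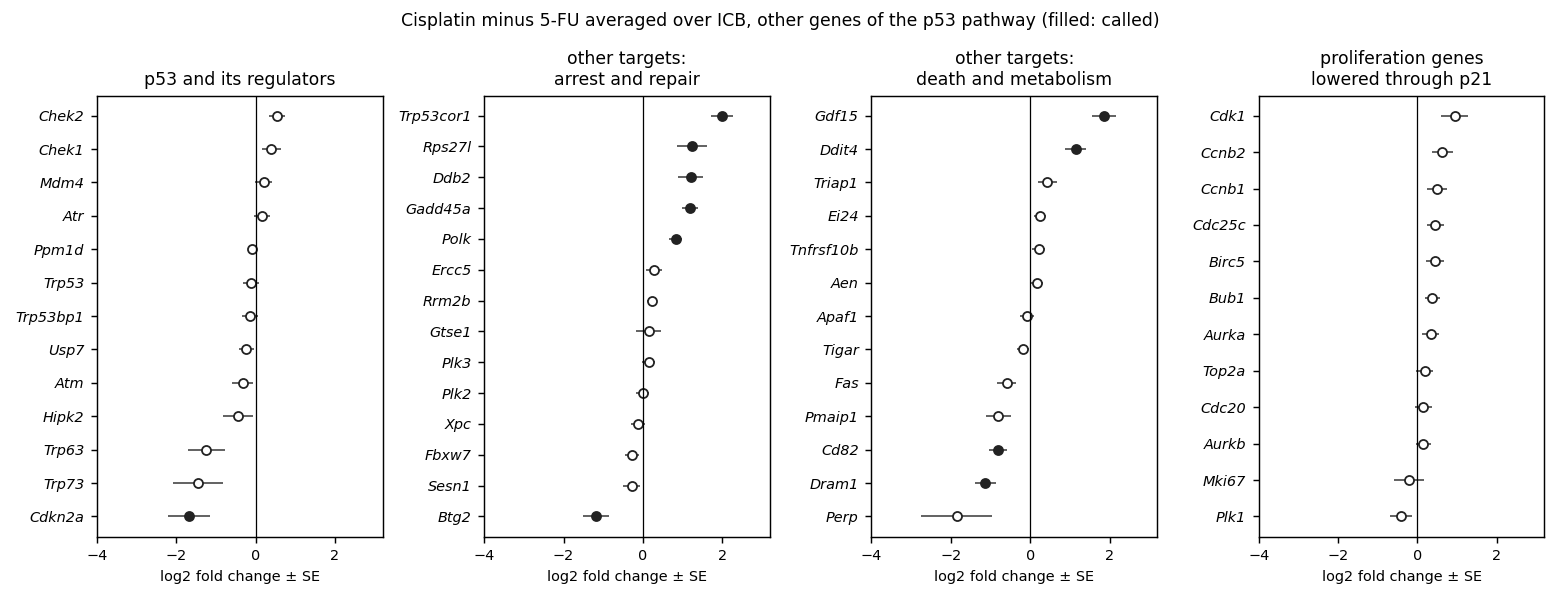
Log2 fold change ± standard error between the drugs (cisplatin minus 5-FU, averaged over ICB, edgeR) for the other genes of the pathway, in 4 lists, with called genes filled. Trp53cor1 and Gdf15 lie farthest right of the called genes, and the proliferation genes hold no filled point.

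The members did not vary alike. Each was compared with the mean of the other 9 by the root mean square difference of standardised log2 CPM over 28 tumors. Trp53inp1 was farthest at 1.68, followed by Sesn2 at 1.39 and Zmat3 at 1.25, whereas the remaining 7 were between 0.566 (Mdm2) and 0.721 (Bax). These 3 are the members not called between the drugs over all tumors, of which Sesn2 was called without both tumors that stood apart. Among 14405 other genes with a mean of at least 1 CPM, the 5 with the pattern nearest to the members' mean were Polk at 0.419, Dzip3 at 0.486, Esco2 at 0.486, Hace1 at 0.494 and Slc25a40 at 0.508. Polk, which encodes a translesion DNA polymerase, is itself a p53 target on the list of repair genes. The mean standardised level of the 10 members was positive in all 9 cisplatin-treated tumors (0.285 to 1.12) and in all PBS tumors (0.152 to 0.363), and negative in 8 of the 10 5-FU-treated tumors and in 4 of the 5 ICB tumors (-0.908 to 0.094).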

How the data were processed

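RNA of 28 AB1-HA tumors was sequenced. Per the labels and the paper's methods, the authors assigned reads to GRCm38/mm10 transcripts with kallisto 0.46.0 (after bcl2fastq 2.20.0.422), compiled genes with tximport and deposited estimated counts in 2 matrices, one per drug, that hold the same 9 PBS and ICB tumors. They were not normalized, and 23.7% were fractional. Near-identical copies and overlapping genes may share reads.

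The counts were rounded, filtered with filterByExpr (17916, 17819 and 18521 genes kept in the 5-FU matrix, the cisplatin matrix and both joined), scaled by TMM and tested with edgeR 4.0.16 (glmQLFit and glmQLFTest, R 4.3.3) with the groups of each matrix modelled together and without covariates. The drugs were compared in the joined matrix. Standard errors were derived from the F statistic. P-values were adjusted by the Benjamini-Hochberg method over all genes, and genes were called at an adjusted p under 0.05 together with a log2 change beyond 0.5 in either direction, as in the paper's methods. The DESeq2 1.42.0 Wald test, the paper's tool, was the alternative. CPM per tumor used TMM-scaled library sizes over all 28 tumors, and log2 CPM a prior count of 2.

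Each tumor came from a separate mouse, per the series' design text. Totals ran from 23541733 to 33950805 counts per tumor, and no member had fewer than 161 counts in any tumor. The procedure was tested on simulated data. The 10 members, the other gene lists and the comparisons were chosen with earlier results of these data known. Named whatever their result between the drugs averaged over ICB were the members, Trp53, Mdm4 and Cdkn2a. In the other comparisons these genes are not all given. From each other list, up to 3 called genes with the largest change were named in a comparison, together with the 5 genes nearest in pattern. Alternatives covered the size factors, the filter, the replicate block, the groups in the model, the fold threshold, the prior count and each tumor left out. The fits without both tumors that stood apart, and with the leukocyte level or Msln as a covariate, were chosen after seeing the data. Promoter windows were searched for pairs of half-sites with at most 3 mismatches, in which the C at position 4 and the G at position 7 of each half-site had to match.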

Additional observations from a re-analysis of the deposited data

Results flagged for a closer look

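Among 78 checks of the members, Trp53, Mdm4 and Cdkn2a in groups of 4 or 5 tumors, 10 found a tumor farther from the rest of its group than Dixon's critical value allows. Chance alone sets apart about 1 in 20 groups. Cisplatin+ICB replicate 1 accounted for 5 of the 10. It had high values of Bax (300.0 CPM, against 80.9 to 109 in the other tumors of its group) and Phlda3 (289 CPM, against 58.3 to 82.5). Low values in the same tumor were those of Trp53inp1 (27.4 CPM, against 47.8 to 53.7), Trp53 (42.8 CPM, against 133 to 151) and Mdm4 (18.6 CPM, against 65.9 to 88.7).

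In PBS tumors, Mdm2 was high in replicate 2 (93.4 CPM, against 72.4 to 74.8) and Trp53inp1 in replicate 4 (33.2 CPM, against 25.2 to 25.8). The 5-FU+ICB tumors had a high Ccng1 value in replicate 2 (426 CPM, against 197 to 246) and a high Mdm4 value in replicate 4 (81.8 CPM, against 40.8 to 49.7). In 5-FU tumors Eda2r was low in replicate 3 (28.9 CPM, against 39.3 to 44.5). 5-FU+ICB replicate 2 also had low leukocyte markers for its group, 486 CPM in sum against 1478 to 2165 CPM.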

How the results depend on the processing

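Between the drugs averaged over ICB, 7 members were called, and 7 with DESeq2, DESeq2's size factors, no filter, at least 10 counts in every tumor and no fold threshold. The count was 4 with only the compared groups in the model, 5 to 7 with each tumor left out (5 without cisplatin+ICB replicate 1), and 2 with either covariate chosen after seeing the data, the leukocyte level or Msln. For 5-FU against cisplatin the 1 call became 3 with DESeq2, 0 with no filter, 4 with only the compared groups, 6 without both tumors that stood apart, 0 with the leukocyte covariate and 0 to 5 with each tumor left out (5 without cisplatin+ICB replicate 1, 2 without 5-FU+ICB replicate 2 or 5, and 0 without most others). For 5-FU+ICB against cisplatin+ICB the 0 calls became 7 with DESeq2, 2 with its size factors, 3 with at least 10 counts, 1 with the leukocyte covariate and 0 to 7 with each tumor left out (7 without 5-FU+ICB replicate 2, 4 without cisplatin+ICB replicate 5). These counts within an ICB setting are thus not stable, and the causes were not tested.

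For 5-FU against PBS the 3 calls became 1 with all 6 groups joined, 2 with the leukocyte covariate (Bax and Ccng1 lost, Zmat3 gained as higher), 4 with Msln (Zmat3 gained), and 1 to 3 with each tumor left out (1 without PBS replicate 2). The averaged 5-FU effect, 1 call, gave 2 with no fold threshold, 0 with the leukocyte covariate and 1 with Msln, there Zmat3 in place of Bbc3. For ICB against PBS, 4 calls became 0 with the leukocyte covariate, stayed 4 with Msln and were 4 to 5 with each tumor left out. DESeq2 called 2 for cisplatin+ICB against ICB and 1 for the averaged cisplatin effect, where edgeR called 0. Calls of 5-FU+ICB against 5-FU ranged from 0 to 2 (2 without 5-FU+ICB replicate 2) and of cisplatin+ICB against cisplatin from 0 to 1 (1 without cisplatin+ICB replicate 1, as without both tumors that stood apart), with each tumor left out.

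The values followed were those of members, Trp53, Mdm4 and Cdkn2a at an unadjusted edgeR p under 0.05, and of the called genes named from other lists. Values outside these also changed sign, such as Trp53inp1 for 5-FU against PBS, from 0.36 to -0.42 with the leukocyte covariate. Of the 103 gene values followed, 6 changed sign, all in covariate fits. With the leukocyte covariate, ICB against PBS gave log2 fold changes of 0.069 for Bbc3, -0.39 for Trp53inp1, -0.387 for Cdkn2a and -0.74 for Btg2. With the Msln covariate they were -0.11 for Bax in cisplatin+ICB against ICB and -0.13 for Phlda3 in the interaction of cisplatin with ICB.

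The replicate numbers did not pair the tumors. Of 66 pairs with the same number, 21 had a correlation over 0.1, and 5 of 28 tumors correlated best with their own number. With the number as a block, 6 members were called between the drugs and 0 for 5-FU against cisplatin, and the other counts of members stayed within 1.5 times.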
